A study of Mus musculus with 2 samples.

Results

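Choroid plexus epithelial cells were examined among hippocampal nuclei of tau transgenic mice with and without *Zbp1*, profiled by single-nucleus RNA sequencing (snRNA-seq). A nucleus was counted as choroid plexus when it held at least 600 unique molecular identifiers (UMIs, each standing for 1 captured RNA molecule) and 300 genes, at most 5% mitochondrial UMIs, and at least 10 UMIs per 10000 from *Tmem72*, *Slc4a5*, *Clic6*, *Otx2*, *Kl* and *Folr1* together. At least 3 of these 6 markers had to be detected, and the oligodendrocyte genes *St18* and *Prr5l* and the ependymal genes *Dnah12* and *Ccdc180* each had to stay under 10 per 10000 as a pair. By this rule 406 of 20594 nuclei were choroid plexus. These nuclei were chosen by their measured UMIs of the 6 markers and the 4 exclusion genes, so levels of the 6 markers and comparisons with other nuclei are given below as descriptions only.

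PS19 mice (PS19+/- *Zbp1*+/+) carry a transgene for human tau with the P301S mutation, driven by the mouse prion promoter, and PZKO mice (PS19+/- *Zbp1*-/-) carry the same transgene without functional *Zbp1*, so both groups were tauopathy mice and no mouse lacked the transgene. All were males aged 9 months, and each genotype was 1 library of pooled hippocampi from 5 males, with no label tying a nucleus to a mouse. The PS19 library held 301 choroid plexus nuclei among 10466 and the PZKO library 105 among 10128. With 1 library per genotype there was no replicate and no test between genotypes was possible. Intervals below are 95% intervals of counting error only, and the genotype, the 2 pools and the dissection of each pool cannot be told apart. Choroid plexus nuclei held 2830315 UMIs in PS19 (median 8993 per nucleus, from 887 to 37121) and 1335870 in PZKO (median 12260, from 625 to 27100). The PZKO library was deeper throughout, with a median of 9634 UMIs over all its nuclei against 6208 in PS19. The libraries shared 47 barcodes, and no choroid plexus nucleus had a shared barcode.

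The choroid plexus is a folded sheet of cuboidal epithelium in the brain ventricles that secretes cerebrospinal fluid. Its cells move ions and water from blood to ventricle, and their tight junctions close the barrier between blood and cerebrospinal fluid. They also pass vitamins, nucleosides and hormones into the fluid and secrete proteins into it, above all transthyretin, the carrier of thyroid hormone. The plexus of the lateral ventricle lies against the hippocampus and can be carried along when the hippocampus is dissected.

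In both libraries the 6 markers marked these nuclei off from all others. *Tmem72*, a membrane protein gene, was at 964 CPM (UMIs scaled to a total of 1000000) in PS19 choroid plexus nuclei against 2.85 CPM in all other PS19 nuclei, and at 1225 CPM against 1.01 CPM in PZKO. *Kl*, which encodes the hormone co-receptor Klotho, was at 533 and 531 CPM in PS19 and PZKO, *Clic6*, a chloride channel family member, at 623 and 898 CPM, and *Otx2*, a transcription factor, at 299 and 393 CPM. The bicarbonate transporter *Slc4a5* was at 463 and 552 CPM and the folate receptor *Folr1* at 235 and 249 CPM. The summed markers had a median of 32.9 per 10000 UMIs in PS19 and 38.6 in PZKO. All 6 markers were detected in 62.5% of PS19 and 83.8% of PZKO nuclei, but after every nucleus was thinned to 4000 UMIs these shares were 23.4% (n = 273, with 28 shallower nuclei left out) and 25.7% (n = 101, with 4 left out).

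Few nuclei sat near the threshold. In PS19, 18 nuclei lay just inside it with sums of 10.1 to 14.9 per 10000, and 18 just outside with sums of 5.08 to 9.80. These were deep nuclei, with median totals of 19303.5 and 21304 UMIs. In PZKO 1 nucleus lay just inside (10.3) and 2 just outside (6.14 and 9.52). The oligodendrocyte genes kept out 9 PS19 and 2 PZKO nuclei, and the ependymal genes kept out none. A further 36 PS19 and 14 PZKO nuclei reached the sum with fewer than 3 markers, and these were shallow, with median totals of 872 and 802 UMIs.

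Genes outside the rule carried the same identity. Next to *Malat1*, the nuclear noncoding RNA, the genes with most UMIs over both libraries together were *Trpm3*, a calcium-permeable channel, at 27709 CPM in PS19 and 31928 in PZKO, and *Htr2c*, the serotonin receptor of this epithelium, at 13500 and 14022 CPM. *Enpp2*, which encodes the secreted enzyme autotaxin, followed at 8769 and 9922 CPM. *Frmpd4*, a synaptic scaffold gene, was at 4362 and 5427 CPM, and *Ttr*, which encodes transthyretin, was at 4461 and 3424 CPM. Long genes gather more UMIs in nuclear RNA, and per kilobase of gene span the order was different. *Ttr* was at 493 CPM per kb in PS19 and 379 in PZKO, *Enpp2* at 76.9 and 87.0, *Htr2c* at 57.5 and 59.7 and *Trpm3* at 32.4 and 37.3. Of these 4 genes, *Ttr* was thus the highest on the per-kilobase scale in both libraries.

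*Trpm3* was not restricted to choroid plexus nuclei. It stood at 25600 CPM in PS19 and 32740 CPM in PZKO in vascular leptomeningeal fibroblast nuclei, found by their own markers, at 147 and 501 CPM in ependymal nuclei and at 286 and 333 CPM in endothelial nuclei. *Trpm3* spans chr19:22139046-22995410 on the plus strand (GENCODE M21, GRCm38, the mm10 build) and holds the hairpin of microRNA 204 in an intron, at chr19:22750605-22750672 on the same strand. The mature products from RefSeq (GRCm38.p6) are shown because this host gene gave more UMIs than any other protein-coding gene in these nuclei, with the seed (bases 2 to 8) in capitals. Mature microRNAs were not measured here.
mmu-miR-204-5p: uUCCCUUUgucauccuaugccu
mmu-miR-204-3p: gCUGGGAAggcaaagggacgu

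Of 7055 genes with at least 100 UMIs in choroid plexus nuclei, 436 (6.18%) were 8-fold or more above all other nuclei in PS19 and 511 (7.24%) in PZKO. Genes entered by their UMIs in choroid plexus nuclei alone, and the rule's own markers were among them. Both shares are therefore partly set by that selection. The 20 highest against other nuclei included the sulfotransferase *Sult1c2*, with 135 and 98 UMIs against 8 and 1 in all other nuclei, the roof plate transcription factor *Lmx1a* at 391 CPM in PS19 and 486 CPM in PZKO, and *Gmnc*, which commits cells to a multiciliated fate, at 1098 and 1268 CPM. The nucleoside transporter *Slc28a3*, the defensin *Defb9*, the protease *Tmprss11a* and the olfactory receptor gene *Olfr1507* were also among them. *Gmnc* was shared with ependymal nuclei (113 CPM in PS19 and 108 CPM in PZKO), where *Otx2* (43.4 and 45.7 CPM) and *Folr1* (60.5 and 56.2 CPM) were also present, while *Tmem72* was at 2.02 CPM there in PS19 and had no UMI in PZKO. In the plot of the 20 genes every filled point lies to the right of its open point, which follows from how they were ranked.

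**Figure D1:**
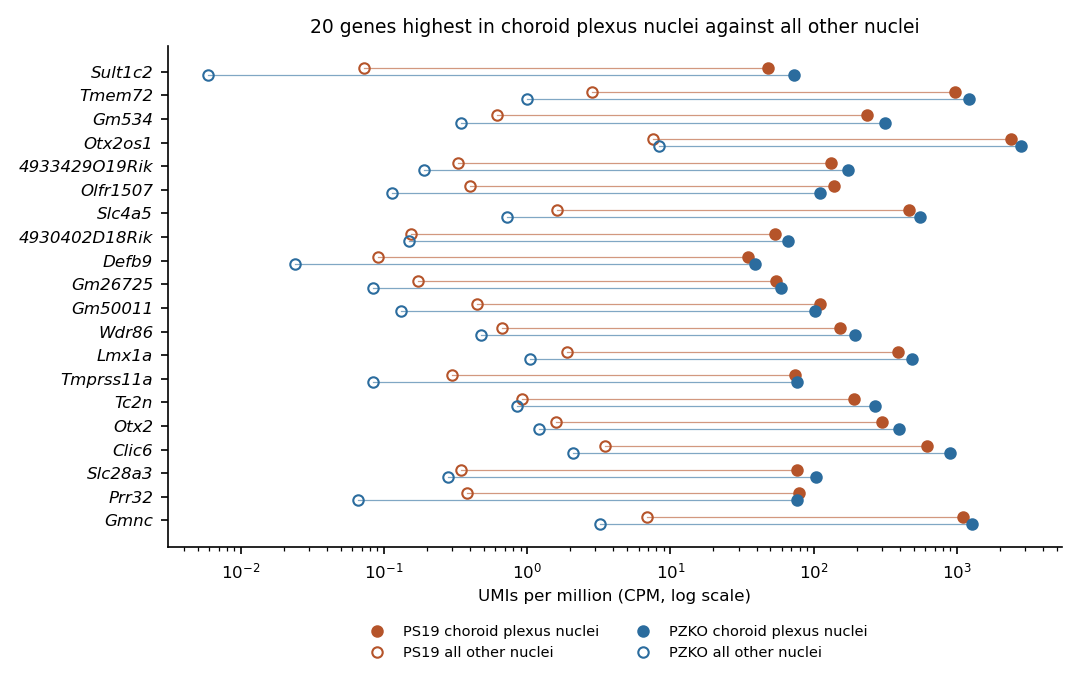
Level (CPM, log scale) of the 20 genes highest in choroid plexus nuclei against all other nuclei, with filled points for choroid plexus nuclei, open points for all other nuclei and a colour for each library. *Otx2os1*, at 2407 CPM in PS19 and 2823 CPM in PZKO, is the most abundant of them.

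A run of 4 of these 20 genes sat side by side on chromosome 14. *Otx2* (chr14:48657677-48673819, minus strand) overlaps the noncoding *Otx2os1* (chr14:48668708-48870683, plus strand) by 5112 bases, *Otx2os1* overlaps *Gm534* (chr14:48870258-48881869, minus strand) by 426 bases, and *Gm534* overlaps *4933429O19Rik* (chr14:48878586-48887112, plus strand) by 3284 bases. Their levels in PS19 and PZKO were 2407 and 2823 CPM for *Otx2os1*, 235 and 315 CPM for *Gm534*, and 132 and 175 CPM for *4933429O19Rik*. Neighbours lie on opposite strands, and whether the counting used strand is not given in the sources used here, so UMIs in the overlaps are uncertain. Of this run only *Otx2* was part of the rule. The nuclei were chosen partly by *Otx2* UMIs and *Otx2os1* overlaps that gene, so the run is not independent of the rule.

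Genes that mark regions of the brain were looked up as well, since a plexus forms in the forebrain and in the hindbrain. *Otx1*, a forebrain and midbrain factor, had 83 and 35 UMIs in PS19 and PZKO choroid plexus nuclei, and *Emx2*, a dorsal forebrain factor, had 29 and 11. All 7 hindbrain *Hox* genes listed (*Hoxa2*, *Hoxa3*, *Hoxa4*, *Hoxb2*, *Hoxb3*, *Hoxb4* and *Hoxd3*) had 0 UMIs in both libraries, which allows up to 3 UMIs each.

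Choroid plexus nuclei made up 2.88% (2.56% to 3.21%) of PS19 nuclei and 1.04% (0.849% to 1.25%) of PZKO nuclei. The share in PS19 was thus 2.77 times that in PZKO (2.21 to 3.50). The PZKO nuclei were deeper. After every nucleus was thinned to 1500 UMIs the shares were 2.11% and 0.823%, with 615 and 406 shallower nuclei left out. Under the 9 alternative definitions tried, thinning among them, the ratio of PZKO to PS19 ran from 0.321 with no thresholds on nuclei to 0.433 with mixed nuclei (defined below) left out, where 217 PS19 nuclei (2.07%) and 91 PZKO nuclei (0.898%) remained. Of the neighbouring classes, ependymal nuclei were also fewer in PZKO (151 in PS19 and 118 in PZKO), while endothelial nuclei (357 and 383) and fibroblast nuclei (72 and 159) were more numerous there.

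**Figure D2:**
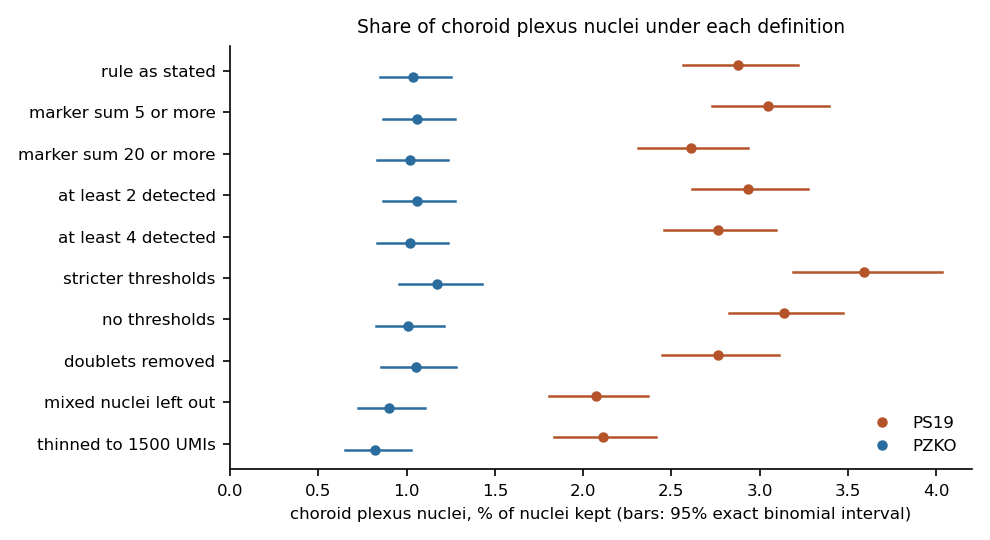
Share of choroid plexus nuclei (% of nuclei kept) in PS19 and PZKO under the stated rule and each alternative, with 95% exact binomial intervals as bars. The PS19 point lies above the PZKO point in each row, at 2.88% against 1.04% under the stated rule.

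Choroid plexus nuclei of PS19 carried more RNA of neuron, oligodendrocyte and astrocyte markers. A nucleus was called mixed when the markers of any 1 other class except ependymal cells, whose cilia genes these nuclei share, reached 10 per 10000 UMIs with at least 2 of them detected, and 84 of 301 PS19 nuclei (27.9%, 22.9% to 33.3%) against 14 of 105 PZKO nuclei (13.3%, 7.49% to 21.4%) met this. This call depends on depth, since few UMIs reach 10 per 10000 in a shallow nucleus. Nuclei not called mixed held at least 3127 UMIs in PS19 and 4709 in PZKO. Leaving out mixed nuclei thus also leaves out every shallower nucleus. The part of depth in the difference between 27.9% and 13.3% was not tested. Excitatory neuron markers were the most frequent, in 48 PS19 and 6 PZKO nuclei. Oligodendrocyte markers followed in 25 and 5 and astrocyte markers in 17 and 4. Endothelial markers called 8 PS19 and 4 PZKO nuclei, and most UMIs of that list came from *Mecom*, a gene high in choroid plexus nuclei at large. How many of these calls rest on *Mecom* was not tested. The 7 excitatory markers together stood at 905 CPM in PS19 and 416 CPM in PZKO choroid plexus nuclei, led by *Syt1*, against 5045 and 5387 CPM in all other nuclei. The medians per nucleus were closer, at 4.01 and 3.24 per 10000 UMIs, and 50.8% of the PS19 UMIs of these markers lay in the 18 nuclei just inside the threshold on the marker sum, of which 16 were mixed. With mixed nuclei left out the excitatory markers stood at 354 and 348 CPM, but oligodendrocyte markers (353 and 253 CPM) and astrocyte markers (208 and 136 CPM) were still higher in PS19. Summed markers of oligodendrocyte precursors were higher in the choroid plexus nuclei of PZKO instead (29.3 CPM in PS19 and 41.9 CPM in PZKO). Those of fibroblasts were too (32.5 and 53.9 CPM). Of the precursor genes, *Vcan* (8.83 and 21.0 CPM) and *Cspg4* (4 and 5 UMIs) were higher in PZKO and *Pdgfra* (19.1 and 17.2 CPM) lower. *Bnc2* (13.8 and 21.7 CPM) and *Col1a2* (13.8 and 27.7 CPM) carried the fibroblast sums. Both were higher than in other nuclei (6.67 and 9.73 CPM, 3.15 and 3.62 CPM). *Ranbp3l* had 2 and 3 UMIs, while *Slc6a13* (6 and 2 UMIs) and *Dcn* (6 and 1 UMIs) were lower in PZKO. Values without the mixed nuclei therefore stand beside the main differences between genotypes below, and the part of RNA of other cell types that remains in either set of values was not tested. Scrublet, which scores nuclei by their likeness to simulated doublets, placed 36 PS19 (11.96%) and 7 PZKO (6.67%) choroid plexus nuclei among the top scores removed.

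Some markers of other classes were at home in these nuclei. The endothelial list was carried by 1 gene, the transcription factor *Mecom*, with 1875 and 1131 UMIs (662 CPM in PS19 and 847 CPM in PZKO, against 38.2 and 34.5 CPM in other nuclei), while the endothelial junction gene *Cldn5* had 4 and 5 UMIs and *Flt1* 7 and 6. The ependymal list was likewise carried by the cilia genes *Spef2* (1598 and 946 UMIs) and *Cfap65* (1016 and 548 UMIs). The macrophage genes *Mrc1* and *Cd163* and the T cell genes *Cd3e* and *Cd3g* had no UMI in choroid plexus nuclei of either library, while the third gene of each list had a few, *F13a1* 15 in PS19 and 3 in PZKO (5.30 and 2.25 CPM, against 4.05 and 3.27 CPM in other nuclei) and *Skap1* 3 and 0.

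**Figure D3:**
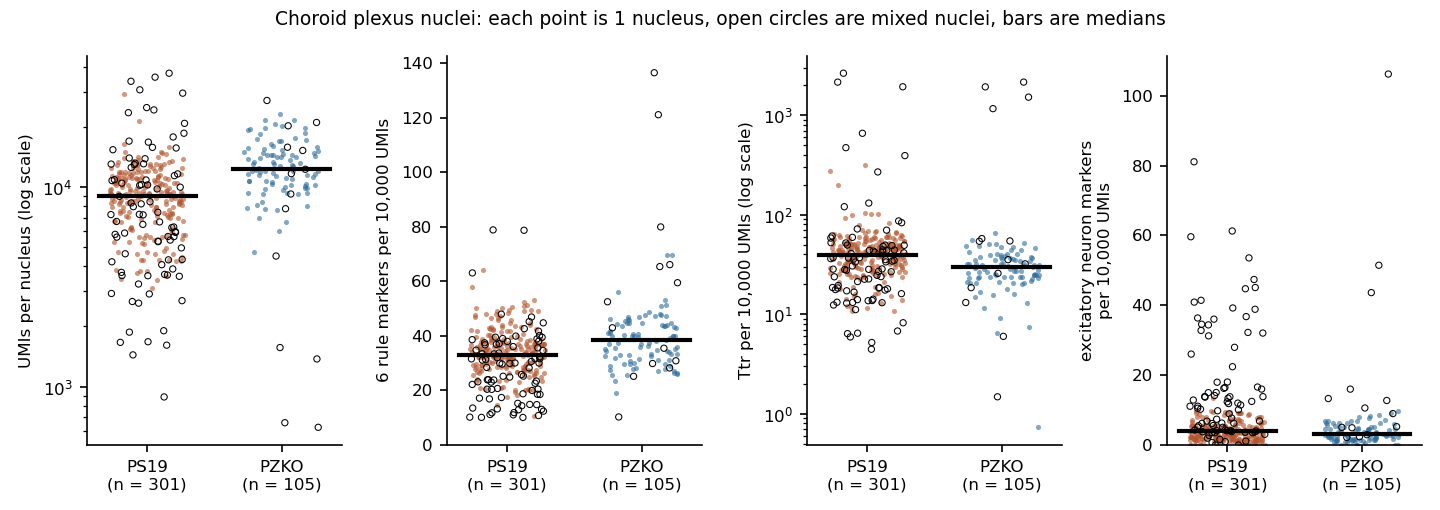
UMIs, the 6 rule markers, *Ttr* and excitatory neuron markers in each choroid plexus nucleus (1 point each; open circles are mixed nuclei, bars are medians; UMIs and *Ttr* on log scales). PZKO nuclei are deeper (median 12260 against 8993 UMIs), and a few nuclei of both libraries stand far above the rest in *Ttr*.

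*Ttr* was the secreted product with the widest range. Per 10000 UMIs, PS19 nuclei held from 4.46 to 2654 *Ttr* UMIs with a median of 39.5, and PZKO nuclei from 0.731 to 2160 with a median of 29.7. The ranges overlapped almost entirely, and every nucleus had at least 1 *Ttr* UMI. Summed over nuclei, *Ttr* stood at 4461 CPM in PS19 (12625 UMIs) and 3424 CPM in PZKO (4574 UMIs), a log2 ratio of PZKO over PS19 of −0.38 (−0.43 to −0.33), and −0.61 (−0.66 to −0.55) with mixed nuclei left out. With no thresholds on barcodes the ratio was −1.93, and the 58 PS19 barcodes above 5% mitochondrial UMIs that this adds held 32218 *Ttr* UMIs, against 307 in 4 such PZKO barcodes. The mean over nuclei of *Ttr* per 10000 UMIs gave the opposite sign (log2 ratio 0.43). The medians per nucleus, 39.5 and 29.7, had the direction of the sums. The mean without the few nuclei highest in *Ttr* was not computed. There were 9 nuclei in PS19 and 4 in PZKO with 200 or more *Ttr* UMIs per 10000, from 270 to 2654 in PS19 and from 1168 to 2160 in PZKO. These were mostly shallow (887 to 13932 UMIs in PS19 with a median of 1873, and 625 to 1568 in PZKO with a median of 1017) with more mitochondrial RNA (median 2.14% and 2.44%, against 0.249% and 0.165% in the others), and without them the ratio of sums was −0.37 (−0.43 to −0.32).

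Outside choroid plexus nuclei the difference in *Ttr* was far larger. All other nuclei held 34122 *Ttr* UMIs in PS19 (309 CPM) and 5471 in PZKO (32.5 CPM), a log2 ratio of −3.25, and ependymal, fibroblast and endothelial nuclei each showed it too, with log2 ratios of −3.10, −3.38 and −2.77. The ratio in choroid plexus nuclei exceeded that in other nuclei by 2.87 (2.80 to 2.93) on the log2 scale. The library with more choroid plexus nuclei was thus also the library with more *Ttr* in nuclei of other kinds. The part of free RNA in this difference was not tested.

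*Zbp1*, the gene removed in PZKO mice, had 0 UMIs in choroid plexus nuclei of both libraries, which allows up to 3 UMIs each, so these nuclei cannot check the genotype. In all other nuclei it had 109 UMIs in PS19 and 50 in PZKO (log2 ratio −1.73, −2.25 to −1.24). The part of the gene that was deleted is not given in the sources used here, so remaining 3′ UMIs do not go against the label. *Mapt*, the mouse gene for tau, had 173 UMIs in PS19 and 29 in PZKO choroid plexus nuclei (log2 ratio −1.49, −2.11 to −0.92), but 48 and 21 with mixed nuclei left out (−0.44, −1.25 to 0.33). *Prnp*, the gene whose promoter drives the transgene, had a log2 ratio of −0.62 (−0.98 to −0.28), and −0.48 with mixed nuclei left out.

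Among partners of ZBP1, the necroptosis genes *Ripk3* (1 UMI in PS19, 0 in PZKO) and *Mlkl* (2 and 0) were near or at 0. The kinase *Ripk1* had 66 and 43 UMIs (log2 ratio 0.47, −0.12 to 1.04), *Casp8*, an initiator caspase, 87 and 43 (0.07, −0.50 to 0.61) and *Adar*, an editor of double-stranded RNA, 175 and 94 (0.19, −0.19 to 0.56). The transcription factor *Irf3* had 186 and 77 (−0.19, −0.59 to 0.20) and the kinase *Tbk1* 267 and 119 (−0.083, −0.41 to 0.23). Of the 5 genes measured, 3 were thus above 0 and 2 below (4409 of all 9709 genes were above 0), and the interval of each includes 0. None passed 2-fold, near the share over all genes (0.257% higher and 5.47% lower). With mixed nuclei left out, 2 were above 0 and 3 below.

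Over both libraries 9709 genes reached 50 UMIs in choroid plexus nuclei, and of these 25 (0.257%) were at least 2-fold higher in PZKO and 531 (5.47%) at least 2-fold lower. With mixed nuclei left out, 29 (0.342%) of 8474 were higher and 138 (1.63%) lower. In all other nuclei, 4 (0.0412%) of the same 9709 genes were 2-fold higher and 73 (0.752%) lower. These nuclei held far more UMIs, 110309428 in PS19 and 168094619 in PZKO against 2830315 and 1335870 in choroid plexus nuclei. Counting error thus takes fewer genes past 2-fold there, and the shares are not on an equal footing. The median log2 ratio over all genes was −0.04 in choroid plexus nuclei and −0.08 in other nuclei.

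The 15 genes lowest in PZKO were led by *Tafa2*, a neuronal secreted factor (192 UMIs in PS19 and 3 in PZKO, log2 ratio −4.92), and included the potassium channel subunits *Kcnip4* (1875 and 76 UMIs, −3.54) and *Dpp10* (1051 and 47 UMIs, −3.40) and the synaptic adhesion genes *Lingo2* and *Opcml*. With mixed nuclei left out *Kcnip4* had 63 and 55 UMIs (0.56, 0.01 to 1.105) and *Dpp10* had 25 and 46 (1.64, 0.90 to 2.40), so the direction was the opposite. *Tafa2* had 21 and 3 UMIs (−2.05, −4.44 to −0.31), with 42.9% of the PS19 UMIs in 1 nucleus. *Opcml* had 66 and 19 (−1.04, −1.86 to −0.29), with 37.9% of the PS19 UMIs in 1 nucleus, so both stayed below 0. With doublets removed instead, *Opcml* lay just above 0. None of the 15 is a gene of the choroid plexus lists.

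When the same ranking was made after leaving out mixed nuclei, other genes came lowest. *Mt1*, a metallothionein that binds zinc and copper, had 188 and 38 UMIs (log2 ratio −1.55, −2.09 to −1.04), *Vim*, the intermediate filament vimentin, had 49 and 4 (−2.86, −4.79 to −1.41), and the noncoding *9130019P16Rik* had 161 and 14 (−2.77, −3.67 to −1.98). *Cst3*, the secreted protease inhibitor cystatin C, had 708 and 205 UMIs (−1.03, −1.26 to −0.81) and *Fth1*, the ferritin heavy chain, 682 and 205 (−0.98, −1.21 to −0.75). These genes were also lower in PZKO in all other nuclei, with log2 ratios of −1.18 for *Mt1*, −1.30 for *Vim*, −0.38 for *9130019P16Rik*, −1.17 for *Cst3* and −0.72 for *Fth1*. For *Vim* and *9130019P16Rik* the ratio over all choroid plexus nuclei lay below that of other nuclei by −1.99 (−3.44 to −0.55) and −1.80 (−2.50 to −1.11).

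The 15 genes highest in PZKO all kept a log2 ratio above 0 with mixed nuclei left out, in a part of the same nuclei they were ranked in. *Prlr*, the prolactin receptor, was the most abundant, at 732 CPM in PS19 and 1112 CPM in PZKO (log2 ratio 0.60, 0.51 to 0.70, and 0.52 with mixed nuclei left out). Its median per nucleus was 5.87 per 10000 UMIs in PS19 (0 to 51.6) and 9.71 in PZKO (0 to 36.8), with wide overlap between the libraries. In all other nuclei *Prlr* stood at 11.98 and 11.77 CPM, and the log2 ratio in choroid plexus nuclei exceeded theirs by 0.63 (0.49 to 0.77).

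*Cldn1*, which encodes the tight junction protein claudin-1 (chr16:26356642-26371841), had 122 UMIs in each library, 43.1 CPM in PS19 and 91.3 CPM in PZKO (log2 ratio 1.08, 0.71 to 1.46, and 0.77 with mixed nuclei left out). *Angptl2*, a secreted angiopoietin-like factor, was at 57.6 and 111 CPM (0.94, 0.61 to 1.27, and 0.82 without mixed nuclei). *Sh3rf2*, a ubiquitin ligase gene, was at 45.9 and 92.1 CPM (1.003), *Zfp423*, a transcription factor, at 130 and 231 CPM (0.83), and the septin gene *Sept9* at 183 and 311 CPM (0.77). The plot of these ratios shows the intervals of the highest genes staying to the right of 0 with and without mixed nuclei, while the lowest genes moved toward or past 0. The genes were ranked by the interval end nearest 0 in all choroid plexus nuclei. The side of 0 on which the highest genes lie is thus largely set by that choice.

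**Figure D4:**
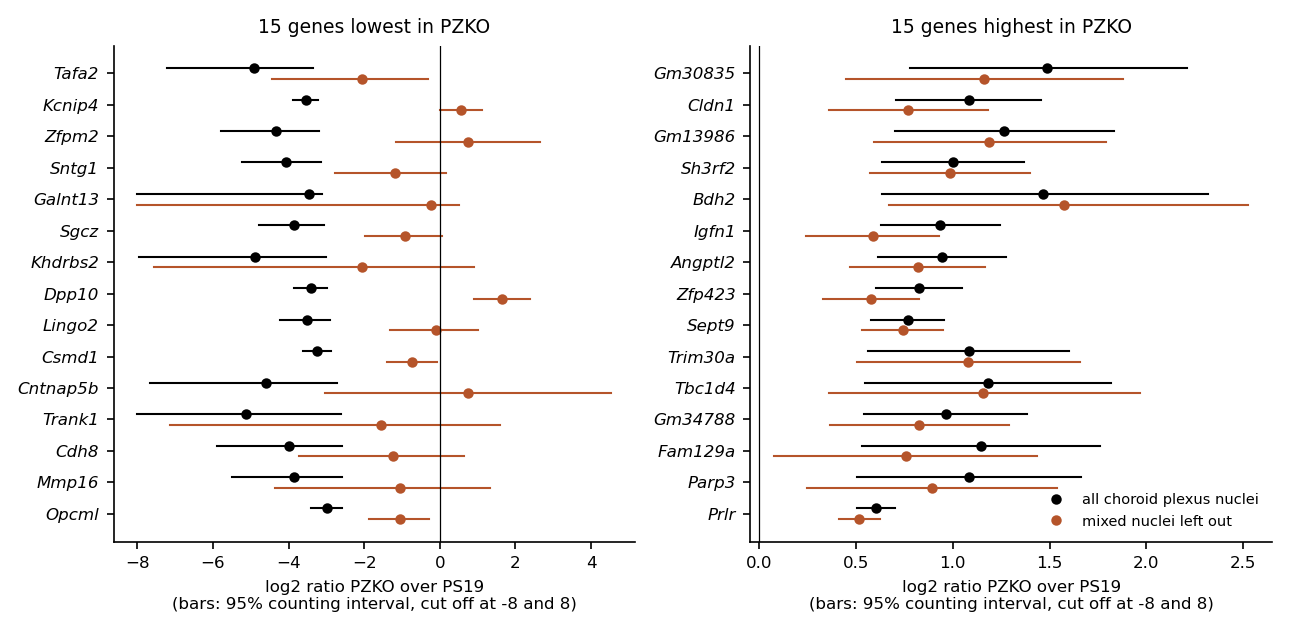
Log2 ratio of PZKO over PS19 for the 15 lowest and 15 highest genes, in all choroid plexus nuclei (black) and with mixed nuclei left out (orange), with 95% counting intervals as bars. *Kcnip4* is at −3.54 in all nuclei and 0.56 without mixed nuclei, and *Cldn1* at 1.08 and 0.77.

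Transport of ions and water is the central work of this epithelium. Of 17 genes measured, that is with at least 50 UMIs, none passed 2-fold, which is near the share over all genes (0.257% higher and 5.47% lower), and the list's median log2 ratio was 0.07 (0.05 without mixed nuclei), beside −0.04 over all genes. *Slc12a2*, the sodium, potassium and chloride cotransporter, was at 502 CPM in PS19 and 621 CPM in PZKO (0.30, 0.18 to 0.43, but 0.13, −0.01 to 0.26, without mixed nuclei), *Slc4a2*, an anion exchanger, at 196 and 278 CPM (0.50, 0.31 to 0.69), and *Trpv4*, an osmosensitive channel, at 190 and 285 CPM (0.59, 0.39 to 0.78). The water channel *Aqp1* had only 53 and 41 UMIs (0.71, 0.09 to 1.33, and 0.54, −0.12 to 1.204, without mixed nuclei). The potassium channel genes *Kcnj13* (−0.24, −0.37 to −0.11) and *Kcne2* (−0.25, −0.48 to −0.02) had log2 ratios below 0, as did *Atp1b2*, a sodium pump subunit (−0.82, −1.54 to −0.16, but −0.60, −1.53 to 0.26, without mixed nuclei).

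Most carriers of organic solutes had ratios slightly above 0. Of 17 genes measured, 15 had a log2 ratio above 0 (4409 of all 9709 genes did). None passed 2-fold, near the share over all genes (0.257% higher and 5.47% lower). The median was 0.29 in choroid plexus nuclei, 0.16 with mixed nuclei left out and −0.10 for the same genes in other nuclei. With mixed nuclei left out, 12 of 16 were above 0 (3822 of all 8474 genes were). *Slc29a4*, a monoamine transporter, was highest in ratio, at 71.0 CPM in PS19 and 116 CPM in PZKO (0.71, 0.40 to 1.02, and 0.47 without mixed nuclei). The efflux pump *Abcc4* (0.50), the vitamin C transporter *Slc23a2* (0.37) and the organic anion transporter *Slco1c1* (0.30, but 0.14, −0.01 to 0.30, without mixed nuclei) also had ratios above 0.

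Secreted proteins went both ways. Of 14 genes measured, 1 passed 2-fold lower in PZKO, *Cst3* at 376 CPM in PS19 and 186 CPM in PZKO (−1.02, −1.22 to −0.82), which is near the 5.47% of all genes that were lower. The median was −0.24 (−0.44 without mixed nuclei), beside −0.81 for the same genes in other nuclei, but it was above 0 with means over nuclei (0.15) and over members with 200 or more UMIs (0.021). *Clu*, the chaperone clusterin, had a log2 ratio of −0.84 and *Ptgds*, prostaglandin D synthase, −0.74, and both also had ratios below 0 in other nuclei (−1.12 and −0.80). *Enpp2* was at 0.18 (0.15 to 0.21) but 0.02 (−0.01 to 0.05) without mixed nuclei. *Bmp7*, a growth factor, was at 0.43 (0.14 to 0.72) but 0.22 (−0.09 to 0.53) without mixed nuclei, and transferrin, *Trf*, at 0.26 (0.03 to 0.49) and 0.24 (−0.02 to 0.49).

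Receptors had a median log2 ratio of 0.06 over 14 genes measured. None passed 2-fold, near the share over all genes (0.257% higher and 5.47% lower). *Htr2c* was near 0, at 0.05 (0.03 to 0.08) in all choroid plexus nuclei and −0.076 (−0.10 to −0.05) without mixed nuclei, and the leptin receptor *Lepr* was at −0.09 (−0.34 to 0.16) and at −0.31 (−0.58 to −0.04) without mixed nuclei. *Prlr*, described above, had the highest ratio of the list. Of 16 junction and polarity genes measured, 1 (*Cldn1*) passed 2-fold higher (0.257% of all genes did), and the median was 0.17 (0.22 without mixed nuclei). Without mixed nuclei none of 14 passed 2-fold higher and 1 (*Krt18*) passed 2-fold lower (1.63% of all genes did). *Ocln*, which encodes occludin, was at 80.9 and 118 CPM (0.55, 0.25 to 0.85), *Cldn2*, a claudin that forms cation pores, at 104 and 144 CPM (0.47, 0.20 to 0.74, and 0.25, −0.04 to 0.53, without mixed nuclei) and *Ezr*, which anchors microvilli, at 277 and 387 CPM (0.48, 0.32 to 0.64). The epithelial keratin gene *Krt18* had a log2 ratio of −0.79 (−1.26 to −0.34), and −1.05 (−1.57 to −0.56) without mixed nuclei.

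None of 6 transcription factors and 14 motile cilia genes measured passed 2-fold, again near the share over all genes (0.257% higher and 5.47% lower), and their medians were 0.25 and 0.09 in all choroid plexus nuclei and 0.11 and −0.04 with mixed nuclei left out. *Lmx1a* was at 0.31 (0.17 to 0.46, and 0.18, 0.03 to 0.33, without mixed nuclei), *Foxj1*, the master regulator of motile cilia, had 144 and 83 UMIs (0.29, −0.12 to 0.69), and *Msx1*, a homeobox factor, was at −0.10 (−0.33 to 0.12). *Spag16*, a gene of the axonemal central pair, was at 1815 CPM in PS19 and 2160 CPM in PZKO (0.25, 0.18 to 0.32, and 0.09, 0.02 to 0.16, without mixed nuclei).

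Interferon-stimulated genes were sparse, with 11 of 25 reaching 50 UMIs. Their median log2 ratio was 0.50 (0.55 without mixed nuclei) beside 0.03 for the same genes in other nuclei, and 1 passed 2-fold higher (0.257% of all genes did), *Trim30a*, an interferon-induced gene, with 65 UMIs in each library (1.08, 0.56 to 1.602). Without mixed nuclei 2 of 10 passed 2-fold higher (0.342% of all genes did). *Ifi27*, the most abundant of the list, had 488 and 224 UMIs (−0.04, −0.27 to 0.19). In PZKO 1 nucleus held 98 of the 733 UMIs of the list (13.4%), from 18 of its genes, while the next held 29 and the median nucleus 6. That nucleus had 14849 UMIs, a marker sum of 29.6 per 10000 and was not mixed. In PS19 the top nucleus, a mixed one, held 59 of 1322 UMIs (4.46%), the next 27 and the median nucleus 4. Without the top nucleus of each library the median of the list was 0.28, no gene passed 2-fold, and *Trim30a* had 59 and 50 UMIs (0.85, 0.28 to 1.42).

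Antigen presentation genes were near the limit of detection, with 5 of 15 measured. The median was −1.17 (−0.56 in other nuclei) and 3 passed 2-fold lower (5.47% of all genes did, and 1.63% without mixed nuclei), the class I genes *B2m* (91 and 17 UMIs, −1.34, −2.18 to −0.58) and *H2-D1* (65 and 11 UMIs, −1.48, −2.55 to −0.55) and the peptide transporter *Tap2* (43 and 9 UMIs, −1.17, −2.40 to −0.12). With mixed nuclei left out only 2 of the list reached 50 UMIs, and they lay on opposite sides of 0, *B2m* with 51 and 12 UMIs (−1.33, −2.38 to −0.41) and *Tapbp*, a peptide loading factor, with 42 and 36 (0.53, −0.15 to 1.21). *Tapbp* was also the 1 measured member above 0 in all choroid plexus nuclei (0.62, −0.0014 to 1.24). Of 8 inflammation genes measured none passed 2-fold (0.257% of all genes were higher and 5.47% lower), and the median was 0.20. *Vcam1*, the leukocyte adhesion molecule, was at 97.9 CPM in PS19 and 161 CPM in PZKO (0.72, 0.45 to 0.98, and 0.43, 0.14 to 0.72, without mixed nuclei).

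Circadian clock genes had ratios below 0 in 13 of 17 (5300 of all 9709 genes did), with a median of −0.23 (−0.24 without mixed nuclei) beside 0.09 for the same genes in other nuclei. None passed 2-fold in all choroid plexus nuclei (0.257% of all genes were higher and 5.47% lower). Of 16 measured without mixed nuclei, 1 (*Ciart*, −1.27, −2.27 to −0.38) passed 2-fold lower there (1.63% of all genes did). The repressors *Cry1* (67 and 17 UMIs, −0.90, −1.76 to −0.11), *Cry2* (213 and 65 UMIs, −0.63, −1.05 to −0.22) and *Ciart* (62 and 15 UMIs, −0.96, −1.88 to −0.13) were lowest. In other nuclei these were at 0.09, 0.14 and 0.00, and the ratio in choroid plexus nuclei lay below theirs by −0.98 (−1.76 to −0.21), −0.77 (−1.18 to −0.37) and −0.96 (−1.78 to −0.14). *Clock* (0.08, −0.16 to 0.31) and *Per2* (−0.03, −0.40 to 0.32) were close to 0.

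Housekeeping lists shared their direction with the rest of the library. Ribosomal protein genes had a median log2 ratio of −0.60 over 77 genes measured, with 8 past 2-fold lower, beside −0.55 in other nuclei. Over all genes 5.47% were 2-fold lower, and the counts of the lists that follow stand beside the same share. These genes have many near-identical copies in the genome, so single values are uncertain. Nuclear genes of oxidative phosphorylation were at −0.43 beside −0.53 (30 genes, 4 past 2-fold lower), chaperones at −0.67 beside −0.68 (9 genes, 2 lower), and mitochondrially encoded genes at −0.83 beside −0.80 (12 genes, 3 lower). Iron and metal genes were at −0.41 beside −0.77, with *Mt1* and *Mt2* past 2-fold lower. The nuclear noncoding RNAs were the exception, with a median of −1.17 and 5 of 9 past 2-fold lower (among them *Meg3*, 1436 and 179 UMIs, −1.92) beside 0.21 in other nuclei, but −0.10 with mixed nuclei left out. The mitochondrial share of UMIs had a median of 0.258% in PS19 and 0.168% in PZKO.

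**Figure D5:**
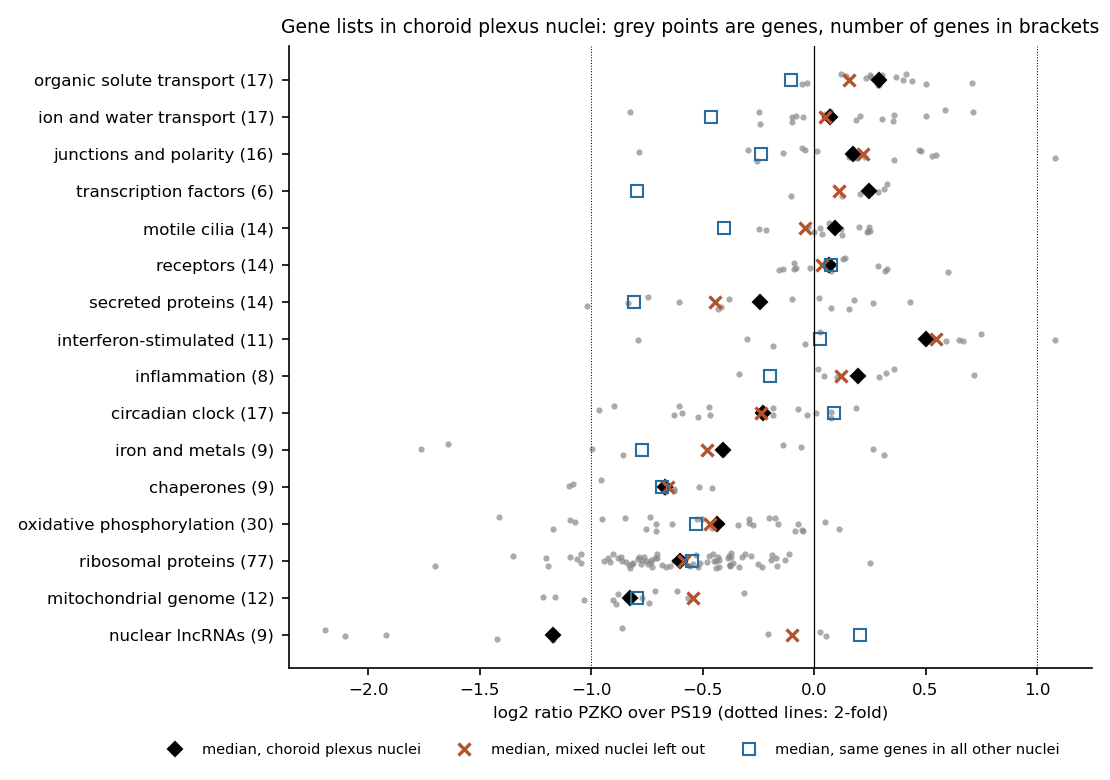
Log2 ratio of PZKO over PS19 for the genes of each list (grey points), with the list's median in all choroid plexus nuclei (diamond), with mixed nuclei left out (cross) and in all other nuclei (square). Ribosomal, chaperone and mitochondrial medians lie near those of other nuclei, whereas the median of nuclear noncoding RNAs is at −1.17 in all choroid plexus nuclei and −0.10 without mixed nuclei.

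The spread among nuclei of a library was largest for a few genes. The variance of each gene over nuclei, given each nucleus's total, was compared with that of counting error, which is about 1. Over 7055 genes its median was 1.27 in PS19 and 1.30 in PZKO, but genes with few UMIs per nucleus lie near 1 through counting error alone, so this does not show that the nuclei were alike. *Ttr* was the most variable gene, at 218 and 340 in all choroid plexus nuclei and 21.4 and 5.16 without mixed nuclei. *Htr2c* kept its spread without them (26.6 and 31.8). Over all choroid plexus nuclei, mixed ones included, *Htr2c* ran from 0 to 395 per 10000 UMIs in PS19 (median 133) and from 0 to 296 in PZKO (median 138). *Trpm3* was at 10.3 and 14.3 without mixed nuclei. *Gpc5*, a glypican gene with 91.1% of its PZKO UMIs in 1 nucleus, was at 25.5 and 64.5 in all choroid plexus nuclei and 4.19 and 0.850 without mixed nuclei. Across nuclei *Ttr* per 10000 UMIs had a Spearman rho with total UMIs of −0.27 in PS19 (n = 301) and −0.32 in PZKO (n = 105), and with *Enpp2* of 0.37 and 0.08. Without mixed nuclei these were −0.09 (n = 217) and −0.16 (n = 91) with total UMIs, and 0.21 and −0.05 with *Enpp2*. Both levels of such a pair are scaled to the same total and come from the same library.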

How the data were processed

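The deposited values are UMI counts per gene and nucleus in 1 PS19 and 1 PZKO library, made by the authors with Cell Ranger (version 7.0.1 in the submitters' processing notes, 8.0.1 in the matrix header) on mm10, without normalization, ambient RNA correction or doublet removal. The thresholds on nuclei are those of the study's methods. Each file lists 32285 genes, of which 32158 (99.6%) had a position in GENCODE M21. Sums over nuclei were scaled to CPM, and log2 ratios of PZKO over PS19 carry exact conditional binomial intervals, shares exact Clopper-Pearson intervals (95%). A gene at 0 in 1 library was given 3 counts. DESeq2 on summed counts, given in the study's methods, leaves no residual degrees of freedom here, and MAST, which the study also names, treats nuclei as replicates and was not used. Doublets were scored with Scrublet in scanpy 1.11.5 and the top 8.37% (PS19) and 8.11% (PZKO) removed as an alternative. Scaling by edgeR 4.0.16 and DESeq2 1.42.0 factors was another. Computation used Python 3.11.15, numpy 2.4.6, scipy 1.17.1 and R 4.3.3. Genes were named by rank, as the 15 with most UMIs, the 20 highest against other nuclei, the 15 lowest and highest in ratio by the interval end nearest 0, and the 15 most variable, besides the rule's genes, *Ttr*, *Zbp1*, *Mapt*, *Prnp* and members of a list where it is described. The values of some single genes are not reported here, while list medians and counts include them. The rule for the nuclei and the lists were chosen with earlier results of these data known. The sources say both that hippocampi of single mice were handled separately and that each library pooled them, and the counts carry no mouse label. In simulated counts of the same depth (9709 genes), the interval held the true ratio for 95.5% of 200 altered genes. These counts were drawn with counting error only, which is what the interval assumes. The simulation held no further spread among nuclei, so it checks the calculation and not the coverage in the real nuclei.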

Additional observations from a re-analysis of the deposited data

Results flagged for a closer look

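Barcodes outside the nuclei analysed also carried the choroid plexus markers. Among barcodes with more than 5% mitochondrial UMIs that passed the thresholds on UMIs and genes, 58 of 818 in PS19 (7.09%, 5.43% to 9.07%) and 4 of 671 in PZKO (0.596%, 0.163% to 1.52%) met the marker rule, a signal in barcodes that the comparisons leave out. The 58 PS19 barcodes were not shallow, with a median of 8581.5 UMIs, and had a median of 15.01% mitochondrial UMIs. They held 32218 *Ttr* UMIs (67261 CPM), more than the 12625 of the 301 nuclei kept (4461 CPM), while *Htr2c* was at 8860 CPM against 13500 and *Malat1* at 29848 CPM against 53422. The 4 PZKO barcodes held 307 *Ttr* UMIs (6881 CPM). With no thresholds on barcodes, 360 PS19 and 110 PZKO barcodes met the marker rule and the log2 ratio of *Ttr* was −1.93.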

How the results depend on the processing

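The ratio of shares kept its direction under every definition tried (PZKO over PS19 from 0.321 to 0.433). Of the counts of genes past 2-fold in PZKO, the higher count (25) was 57 with means over nuclei, 96 at 20 UMIs or more and 2 at 200 or more. The lower count (531) was 198 with a marker sum of 20 or more, 166 with doublets removed, 138 with mixed nuclei left out, 200 with the profile of other nuclei subtracted (18.8% of PS19 and 10.4% of PZKO choroid plexus UMIs), 1069 at 20 UMIs or more and 147 at 200 or more. List medians moved for nuclear noncoding RNAs (−0.077 with doublets removed, −0.10 with mixed nuclei left out, −0.050 with subtraction), for mitochondrially encoded genes (−0.42 with stricter thresholds, −1.88 with none, −0.54 with mixed nuclei left out, −0.40 with means over nuclei), and with no thresholds for secreted proteins (−0.97) and iron and metal genes (−1.16). The other list medians stayed within the counting interval of their middle gene, though some changed sign, those of secreted proteins with means over nuclei (0.15) and at 200 UMIs or more (0.021), of ion and water transport with doublets removed (−0.046) and subtraction (−0.0091), of receptors with subtraction (−0.024), of motile cilia under 4 settings (−0.057 to −0.014) and of the *Zbp1* pathway under 5 (−0.20 to −0.039). The sign reversed for *Ttr* with means over nuclei (0.43), for *Enpp2* with no thresholds (−0.070), and for *Htr2c* with a sum of 20 or more (−0.064), doublets removed (−0.076), mixed nuclei left out (−0.076), means over nuclei (−0.028) and subtraction (−0.089). Removing doublets reversed *Kcnip4* (0.57), *Zfpm2* (0.29), *Galnt13* (0.14), *Sgcz* (1.99), *Dpp10* (1.91), *Lingo2* (0.10), *Csmd1* (0.83), *Cntnap5b* (0.88) and *Opcml* (0.030), and leaving out mixed nuclei reversed *Kcnip4* (0.56), *Zfpm2* (0.76), *Dpp10* (1.64) and *Cntnap5b* (0.76). Some of these rest on few UMIs in PS19 and PZKO, with doublets removed *Zfpm2* (9 and 6), *Galnt13* (5 and 0, the latter counted as 3), *Sgcz* (6 and 13), *Lingo2* (24 and 14) and *Cntnap5b* (2 and 2), and with mixed nuclei left out *Zfpm2* (6 and 6) and *Cntnap5b* (2 and 2). Apart from the fewer nuclei or genes that a setting leaves, the cause was not tested. Leaving out the nuclei rich in *Ttr*, or the 1 nucleus per library richest in interferon-stimulated UMIs, was chosen after seeing the data. No paired analysis was possible because each genotype was 1 library, and for the same reason no replicate could be left out.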

Other observations

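With mixed nuclei left out, several genes of other cell types ranked highest in PZKO, and a large part of their UMIs there came from single nuclei. Their ratios without those nuclei were not computed. *Adarb2*, an inhibitory neuron gene, had 11 UMIs in PS19 and 103 in PZKO, of which 64.1% came from 1 nucleus. *Nrxn3* and *Auts2*, both neuronal, drew 47.3% and 42.3% of their PZKO UMIs from 1 nucleus. *Cx3cr1*, listed as a microglial marker, was higher in choroid plexus nuclei (65.0 CPM in PS19 and 63.6 CPM in PZKO) than in all other nuclei (40.2 and 27.8 CPM), while *Csf1r* had 16 UMIs in PS19 choroid plexus nuclei. Genes that varied most among nuclei without mixed ones included *Col8a1*, a collagen gene (variance 7.57 in PS19 and 10.5 in PZKO), *Grm8*, a glutamate receptor (7.70 and 13.9), and *Slit2*, a secreted guidance cue.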
